A study of Homo sapiens with 4 samples.

Results

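The signal recognition particle (SRP) was examined in HT1080 cells, a human fibrosarcoma line with an activated NRAS allele, in which KDAC8 (the lysine deacetylase encoded by HDAC8) had been knocked out. The members are the 7SL RNA genes RN7SL1 and RN7SL2, the mRNAs of the 6 protein subunits SRP9, SRP14, SRP19, SRP54, SRP68 and SRP72, and the mRNA of SRPRB, the beta subunit of the SRP receptor. They were chosen by gene name, with earlier results on the levels of the 2 RNAs and on their spread between libraries known. Levels of the RNA, its spread between libraries and the gap between it and the proteins are therefore given as description, without a test. The 9 names matched 10 of the 60675 rows of the deposited table: 7 protein rows, 2 rows named RN7SL1 and 1 row named RN7SL2. RNA-seq with depletion of ribosomal RNA was done on 4 replicates, which form a single group. All carry the KDAC8 knockout, and no parental cells were analysed here, so every value is a level in knockout cells or a comparison between genes or libraries. The labels do not say whether the knockout line was a single clone or whether the replicates were separate cultures, so the spread between libraries may be technical.

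SRP is a ribonucleoprotein that binds a signal sequence as it leaves the ribosome, slows translation and brings the ribosome to the endoplasmic reticulum. One RNA, 7SL, forms its scaffold. The Alu domain of the RNA, made of its 5′ and 3′ ends, binds the heterodimer of SRP9 and SRP14 and slows elongation. The S domain binds SRP19, the SRP68 and SRP72 pair, and SRP54, the GTPase that holds the signal sequence. At the membrane SRP54 meets the receptor, whose alpha subunit is a GTPase and whose beta subunit, SRPRB, anchors it. RNA polymerase III transcribes 7SL from internal and upstream promoter elements, and the La protein, SSB, binds the new transcript.

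Total counts were 39454210 to 45828807 per library. Levels are given as CPM, counts scaled to a common library size adjusted for composition (trimmed mean of M values), and errors are SD over the 4 libraries. HDAC8 itself had 80, 89, 95 and 107 counts in replicates 1 to 4, but reads from outside an edited site still count, so these values do not check the knockout. For the cell label, the mesenchymal markers VIM, CD44, FN1, MMP14 and TGFBI were at 1 CPM or more in every library, and 4 of the 6 on that list varied between libraries, against 59.2% of all rows tested, while S100A4 had 0.449 ± 0.143 CPM. Of the epithelial, haematopoietic and endothelial markers, 0 of 9 reached that level, and EPCAM, CDH1, KRT5 and CD14 had 0 counts. Each pair of libraries differed by more than counting noise in 4175 to 7728 rows. In bulk RNA, fewer cells with a transcript and less of it per cell cannot be told apart.

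How alike the 7SL copies are matters for every RNA value here. The 3 annotated full-length copies lie on chromosome 14 of GRCh38 as single-exon genes of the class misc_RNA, RN7SL1 on the forward strand and RN7SL2 and RN7SL3, which is no member, on the reverse strand. In the transcripts of GENCODE release 29, RN7SL1 and RN7SL2 were identical at 295 of 299 aligned bases (98.7%), with 4 differences and an identical stretch of 205 bases between them. A read pair inside that stretch matches both genes equally well, so the division of counts between RN7SL1 and RN7SL2 rests on read pairs that reach 1 of the 4 differing bases and on the estimate for the rest. RN7SL3 differed from RN7SL1 at 7 positions (97.7% identity) and shared at most 123 bases in a row with it. The sum over RN7SL1 and RN7SL2 does not depend on that division. It is used below where 7SL RNA is set against its proteins and for likeness in library pattern. Levels, ranks and ranges given for RN7SL1 or RN7SL2 alone do depend on the division.

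The table's names did not follow the loci. RN7SL1 (ENSG00000276168) had 919636, 1568112, 1405311 and 1076005 expected counts in replicates 1 to 4. The row named RN7SL2 (ENSG00000280102) was at 0 in all 4 libraries. The gene ID that GENCODE and the reference name table give to RN7SL2, ENSG00000274012, stands in the deposited table under the family name Metazoa_SRP, with 602918, 1001169, 993351 and 765752 counts. It is called RN7SL2 from here on and is counted in the 7SL sum, although a match by table name alone would miss it. The ID of RN7SL3 (ENSG00000278771) also stood under Metazoa_SRP, with 5237 to 9247 counts. A further row named RN7SL1 (ENSG00000283029), which GENCODE 29 calls AL139099.4 and classes as non_coding, spans the same bases as RN7SL1 plus 1 base at the 5′ end.

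RN7SL1 had 22747, 37235, 31024 and 25453 CPM in replicates 1 to 4, a mean of 29115 ± 6417 CPM (SD, n = 4). No row of the table had a higher mean. RN7SL2 followed the same order, with 14913, 23773, 21929 and 18114 CPM and a mean of 19682 ± 3958 CPM. Replicate 1 was lowest and replicate 2 highest for both genes, by 1.64 times for RN7SL1 and 1.59 times for RN7SL2. Together the loci held 3.86%, 5.88%, 5.24% and 4.47% of all counts in replicates 1 to 4, and their summed level was 48838 ± 10290 CPM. RN7SL1 made up 58.5% to 61.0% of the sum, and the ratio of RN7SL2 to RN7SL1 was 0.655, 0.638, 0.706 and 0.710 in replicates 1 to 4. The ratio was thus lower in replicates 1 and 2 than in replicates 3 and 4, a gap smaller than that of the summed level between libraries. RN7SL3 stayed at 0.501% to 0.589% of the RN7SL1 counts.

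**Figure D1:**
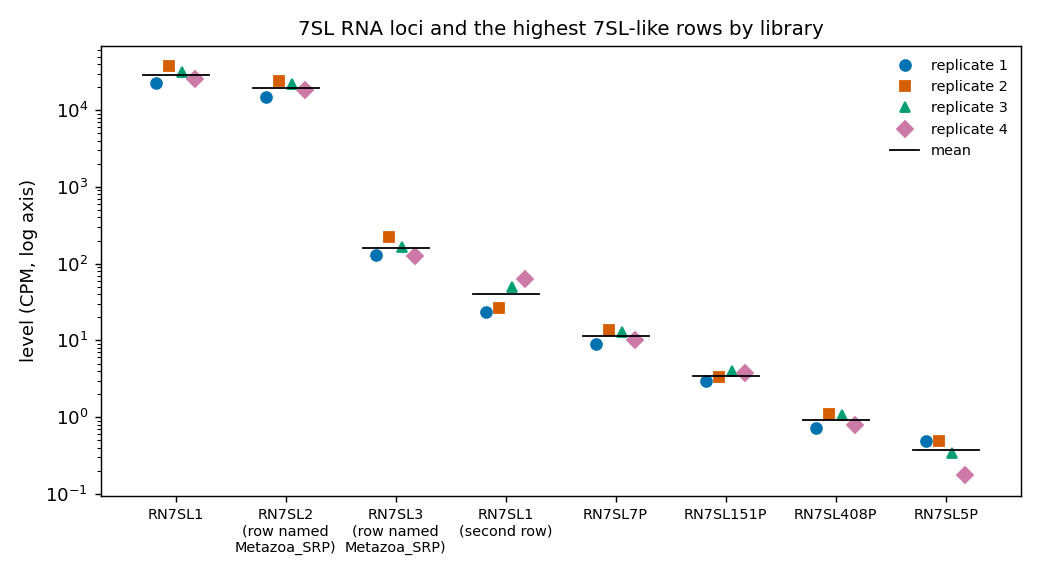
Level in CPM (log axis) of the 7SL RNA loci and of the highest other rows with a 7SL name, with 1 symbol per library and a bar at the mean. RN7SL1 and RN7SL2 sit at 14913 CPM or more in every library, RN7SL3 at 161 CPM on average and RN7SL7P at 11.4 CPM.

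The second RN7SL1 row behaved differently from the first. It had 23.7, 26.4, 49.6 and 63.6 CPM, so it was highest in replicate 4, where the main row was below its own mean. It took 0.104%, 0.0709%, 0.160% and 0.249% of the counts of both RN7SL1 rows. Since all but 1 of its 300 bases are those of the main row, its counts and those of the main row cannot be told apart except by that base. BCYRN1, another short RNA polymerase III transcript with a sequence related to the Alu domain, was also higher in replicates 3 and 4, at 0.763, 0.806, 1.37 and 1.72 CPM.

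Pseudogene copies of 7SL added little. Besides the RN7SL1, RN7SL2 and RN7SL3 loci, 904 rows carried a name starting with RN7SL or the name Metazoa_SRP, and 703 of them were at 0 in every library. These rows together had 16.1 to 22.0 CPM per library, or 0.0356% to 0.0462% of all counts given to 7SL-like rows. The highest was RN7SL7P on chromosome 7 (92971002 to 92971299), at 9.10, 13.6, 12.8 and 10.2 CPM. RN7SL151P on chromosome 9 had 3.49 ± 0.462 CPM, and RN7SL408P, RN7SL5P and RN7SL832P had 0.912 ± 0.191, 0.373 ± 0.149 and 0.372 ± 0.140 CPM. By identity to RN7SL1 over aligned bases, these 5 copies (79.9% to 92.4%) differed more than RN7SL3 (97.7%) did. RN7SL7P was 87.9% identical and shared at most 27 bases in a row with RN7SL1 or RN7SL2. Over the 843 rows with a sequence in GENCODE 29 the median of that longest shared stretch was 22 bases. Only RN7SL5P (209 bases) and RN7SL4P (192 bases) shared 150 or more in a row, longer than the 123 of RN7SL3. Both were under 0.4 CPM on average, with expected counts that were not whole.

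The protein subunits were expressed as ordinary mRNAs, far below the RNA. SRP9 (chromosome 1, 225777813 to 225790466), the smaller Alu-domain protein, had 163, 157, 138 and 132 CPM in replicates 1 to 4. Like SRP72, described below, it was higher in replicates 1 and 2 than in replicates 3 and 4. SRP14 (chromosome 15, 40035739 to 40039188), its partner, had 85.6, 83.2, 87.7 and 82.2 CPM. The libraries were close for SRP14, so the ratio of SRP9 to SRP14 in CPM was 1.91, 1.89, 1.58 and 1.61. A processed pseudogene, SRP9P1, was listed with 16.3 to 40.6 counts, against 5592 to 6616 for SRP9. Its level was 0.968, 0.965, 0.359 and 0.429 CPM, again higher in replicates 1 and 2, and the expected counts of both were not whole, so reads may have been shared between them.

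Among the S-domain proteins SRP72 was highest and SRP19 lowest. SRP72 (chromosome 4, 56467336 to 56503681) had 280, 271, 252 and 248 CPM, and SRP68 (chromosome 17, 76038775 to 76072653), with which it forms a heterodimer, had 91.7, 96.8, 88.5 and 83.9 CPM. The ratio of SRP72 to SRP68 in CPM was 2.79 to 3.05 in the 4 libraries. SRP54 (chromosome 14, 34981957 to 35029567) had 58.2, 56.3, 58.9 and 54.8 CPM, and SRP19 (chromosome 5, 112861188 to 112898371), which helps SRP54 onto the RNA, had 28.9, 27.0, 28.3 and 25.7 CPM. Replicate 4 was the lowest library for SRP9, SRP14, SRP19, SRP54, SRP68 and SRP72. SRPRB (chromosome 3, 133784033 to 133825772) had 65.2, 59.9, 63.8 and 64.0 CPM, with its lowest value in replicate 2.

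Divided by annotated exon length, SRP9 led at 85.5 ± 8.61 CPM per kilobase. SRP14 (42.2 ± 1.23) and SRP72 (40.8 ± 2.35 CPM per kilobase) followed, and their ranges over libraries overlapped. SRPRB (15.1 ± 0.556) and SRP54 (14.6 ± 0.480 CPM per kilobase) overlapped as well. SRP68 came next at 11.8 ± 0.711 CPM per kilobase, and SRP19 was lowest at 2.61 ± 0.135. The order of the middle genes depends on the length used: per kilobase of the longest annotated transcript SRP68 (34.1) stood above SRP54 (24.5) and SRPRB (22.4), while SRP9 (92.6), SRP14 (78.6) and SRP72 (63.5) stayed on top and SRP19 (3.89) at the bottom. By both measures SRP19 had the greatest length of these genes, 10517 bases of exon and 7063 in the longest transcript. Its distance below the others per kilobase therefore rests largely on length. In CPM it was also lowest, at 27.5 against 57.1 for SRP54, the next lowest. The ratio of SRP9 to SRP14 fell from 2.03 ± 0.206 per kilobase of exon to 1.18 ± 0.120 per kilobase of the longest transcript.

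Within each library the RNA lay far above the mRNAs of its proteins on the per-kilobase scale. The summed 7SL RNA stood at 125864, 203865, 177022 and 145718 CPM per kilobase in replicates 1 to 4, against a median over the 6 protein subunits of 28.8, 28.0, 27.1 and 26.3 CPM per kilobase. The ratio was 4368-fold, 7292-fold, 6521-fold and 5540-fold, a log2 ratio of 12.51 ± 0.32 (SD, n = 4). It was smallest against SRP9, from 1330-fold in replicate 1 to 2242-fold in replicate 2. It was largest against SRP19, the subunit gene with the longest annotated exons, from 45745-fold to 79299-fold. The gap has no test, and it depends on length: the log2 ratio was 9.10 without a length correction and 11.69 per kilobase of the longest transcript. It compares an RNA of the particle with mRNAs that code for the other parts, so it is not a stoichiometry, and how well an RNA of 299 bases enters such a library was not tested.

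**Figure D2:**
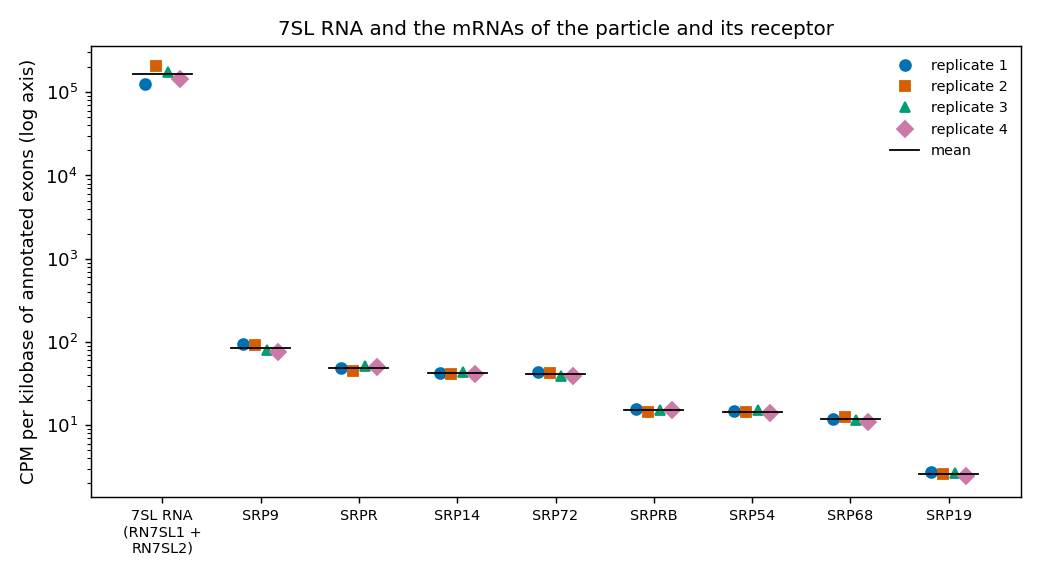
CPM per kilobase of annotated exons (log axis) for summed 7SL RNA and for the mRNAs of SRP and its receptor, with 1 symbol per library and a bar at the mean. The RNA lies at 125864 CPM per kilobase or more in all 4 libraries, and the mRNAs lie between 2.45 and 94.6.

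The RNA and the mRNAs also differed in their spread. The log2 deviations from the mean of the 4 libraries were -0.35, 0.35, 0.14 and -0.14 for summed 7SL RNA, and 0.056, 0.017, 0.012 and -0.085 for the median protein subunit. The ratio between RNA and proteins therefore followed the RNA, with its lowest value in replicate 1 and its highest in replicate 2. Among the 9480 rows with a mean of 10 CPM or more and no library at 0, 1.75% had a ratio of highest to lowest library of 1.5 or more, and the median ratio was 1.15. RN7SL1, RN7SL2 and the second RN7SL1 row were among the 1.75%. Their spread is given as description only, since earlier results on it were known when the members were chosen. The count for the protein rows was 0 of 7, which is near the 1.75% of all rows. With totals alone as the scale RN7SL2 fell just under that threshold (1.498 times), and RN7SL1 stayed above it (1.54 times). The proteins ranged from 1.07 times for SRP14 to 1.24 times for SRP9, with a median of 1.13. Library composition moved with the RNA: the scaling factors were 1.02, 0.963, 0.988 and 1.03 in replicates 1 to 4, lowest where 7SL took the largest share of counts. Summed 7SL RNA ranged 1.62 times between libraries with these factors and 1.52 times with totals alone, with an SD of 10290 and 8811 CPM.

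**Figure D3:**
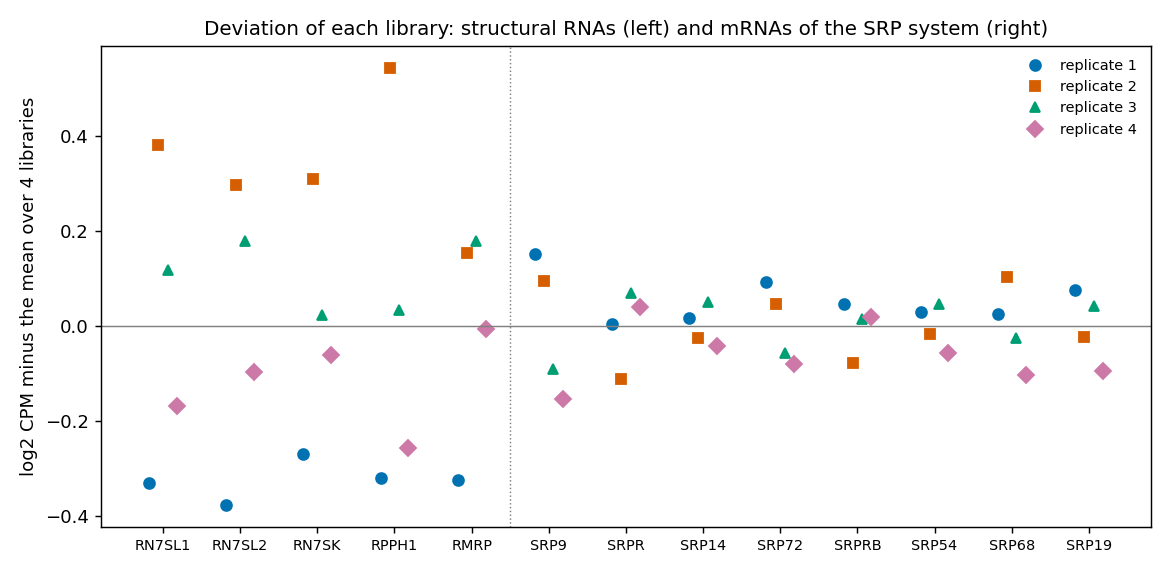
Deviation of each library from the gene's mean log2 CPM, for RN7SL1, RN7SL2 and the main rows of RN7SK, RPPH1 and RMRP (left of the dotted line) and for the mRNAs of SRP and its receptor (right). The structural RNAs are lowest in replicate 1 and range 1.42 to 1.82 times between libraries, against 1.07 to 1.24 times for the mRNAs.

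Small differences between libraries were still detectable for most protein subunits. Of the 7 protein rows, 6 varied beyond counting noise (chi-square test of homogeneity, adjusted over all rows), against 59.2% of the 16790 rows tested. Rows with many counts pass this test more easily: with a minimum mean of 50 counts, 68.5% of all rows passed. SRP9 (adjusted p = 2.91e-39), SRP72 (1.98e-22) and SRP68 (2.71e-08) varied, and did so under all 8 alternative settings. SRPRB (0.0248), SRP14 (0.0421) and SRP19 (0.0444) were near the threshold, and SRP54 (0.0755) did not pass it. The call of SRPRB was lost without replicate 1 (0.0505) or replicate 2 (0.746). SRP14 lost its call without replicate 3 (0.286) or 4 (0.132), and SRP19 without replicate 1 (0.120) or 4 (0.355). Without the filter on low counts SRP14 (0.0662) and SRP19 (0.0697) did not pass, while SRP54 passed with the DESeq2 size factors (0.0464) and with totals alone (0.0118).

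The rest of the targeting route was expressed throughout. All 38 genes of 5 lists, the receptor's alpha subunit, the translocon, signal peptidase, oligosaccharyltransferase, and the nascent chain complex with other routes to the endoplasmic reticulum, were at 1 CPM or more in every library. Of them, 36 varied beyond counting noise, against 59.2% of all rows and 68.5% of rows with a mean of 50 or more counts. These genes all had more counts than that minimum, and rows with many counts pass this test more easily. Of the 36 at 10 CPM or more, 0 reached a ratio of 1.5 between libraries, against 1.75% of all rows, so that count is near the background. Their median ratio was 1.16, against 1.15 over all rows. The alpha subunit of the receptor, listed under its older name SRPR (ENSG00000182934), had 203, 188, 213 and 208 CPM. It exceeded SRPRB 3.13-fold to 3.34-fold per kilobase of exon, and it varied. Like SRPRB, SRPR was lowest in replicate 2.

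In the translocon list 11 of 12 genes varied, against 59.2% of all rows and 68.5% of those with 50 or more counts. SSR3, a subunit of the translocon-associated complex, had 131 ± 5.05 CPM per kilobase, and SEC61A1, which forms the channel, had 114 ± 5.20. SEC61A2, a paralog of the channel subunit, had 1.09 ± 0.0744 CPM per kilobase and did not pass the test. The small channel subunit SEC61B had the widest range, 1.33 times, and its highest library was replicate 2 (30.1 CPM against 22.6 to 25.1). Signal peptidase, which cuts the signal sequence, had 4 of 5 genes that varied (59.2% of all rows). Its accessory subunits SPCS3 (35.4 ± 2.14) and SPCS2 (19.7 ± 1.01 CPM per kilobase) were highest, and SEC11C, a catalytic paralog, was lowest at 1.60 ± 0.162 CPM per kilobase. SEC11A, the other catalytic paralog, had 15.6 ± 0.320 CPM per kilobase. All 10 genes of oligosaccharyltransferase, which adds N-linked sugars, varied (59.2% of all rows): DDOST (104 ± 5.87) and DAD1 (90.9 ± 5.34 CPM per kilobase) led, and KRTCAP2 (7.74 ± 0.913) was lowest. OST4 had the widest range there, with 31.8, 46.5, 38.5 and 34.7 CPM. OST4 thus had its lowest and highest values in the same libraries as 7SL RNA. The marker VIM and BAG6, described below, had them there too, so this order is not particular to OST4.

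All 10 genes of the nascent chain complex and the other routes varied (59.2% of all rows). BTF3, the beta subunit of the complex that competes with SRP for new chains, stood at 200.2 ± 13.6 CPM per kilobase. The chaperone BAG6 of the tail-anchor route had 58.0 ± 4.85 CPM per kilobase. The insertase subunit listed under its older name WRB (1.48 ± 0.111 CPM per kilobase) was lowest, and GET4 had the widest range, 1.35 times.

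Genes that make 7SL were all detected. The list of 22 held subunits of RNA polymerase III and its factors TFIIIC and TFIIIB, the repressor MAF1 and the La protein, and 15 of them varied (68.2%, against 59.2% of all rows). Of the 21 at 10 CPM or more, 0 reached a ratio of 1.5, near the 1.75% of all rows, and their median was 1.12. GTF3C6, a TFIIIC subunit, was highest at 34.6 ± 2.29 CPM per kilobase, and BRF1, a TFIIIB subunit, lowest at 1.87 ± 0.133. MAF1, which holds back RNA polymerase III, was second at 32.6 ± 5.31 CPM per kilobase and had the widest range, 1.39 times. It had 67.8, 91.9, 84.4 and 66.2 CPM, so it was high in replicates 2 and 3, as 7SL RNA was.

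Among other RNA polymerase III RNAs, the long ones were abundant. RN7SK (331 bases), the RNA that holds the elongation factor P-TEFb, had 19755, 29476, 24195 and 22808 CPM. The main row of RPPH1 (333 bases), the RNA of ribonuclease P, had 7215, 13132, 9228 and 7545 CPM, and the main row of RMRP (264 bases), the RNA of ribonuclease MRP, had 2878, 4008, 4080 and 3587 CPM. Replicate 1 was the lowest library for all 3, as for RN7SL1 and RN7SL2, and replicate 2 the highest for RN7SK and RPPH1. Per kilobase RN7SL1 stood at 97374 ± 21463, RN7SK at 72685 ± 12266 and RN7SL2 at 65608 ± 13193 CPM per kilobase, and the ranges of these RNAs overlapped, although RN7SL1 exceeded both others in each library. BCYRN1 (200 bases) had 1.17 ± 0.463 CPM.

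The 13 listed RNAs of 89 to 128 bases were at 0 in every library: RNY1, RNY3, RNY4, VTRNA1-1, VTRNA1-2, VTRNA1-3, VTRNA2-1, RNU6-1, RNU6-2, RNU6-7, RNU6-8, RNU6-9 and RNU6ATAC. A count of 0 allows up to 0.0176 CPM over the 4 libraries (3 counts). U6 RNA is needed for splicing in every cell, so a 0 in this table does not show that an RNA of that length was absent from the cells. RNY5 was not matched to a row. All 6 rows of the list that could be tested varied, against 59.2% of all rows. They include overlapping rows of RPPH1 and RMRP, and rows with as many counts as the main rows pass this test more easily. The second rows of RPPH1 and RMRP ranged most, 7.04 times and 3.57 times. Both lie over the bases of the main rows, so the division of counts is uncertain. The RPPH1 one, which GENCODE 29 calls AL355075.4 and classes as antisense, lies on the same strand as the main row. It spans 638 bases against 333 for the main row. Part of it therefore lies outside the main row.

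**Figure D4:**
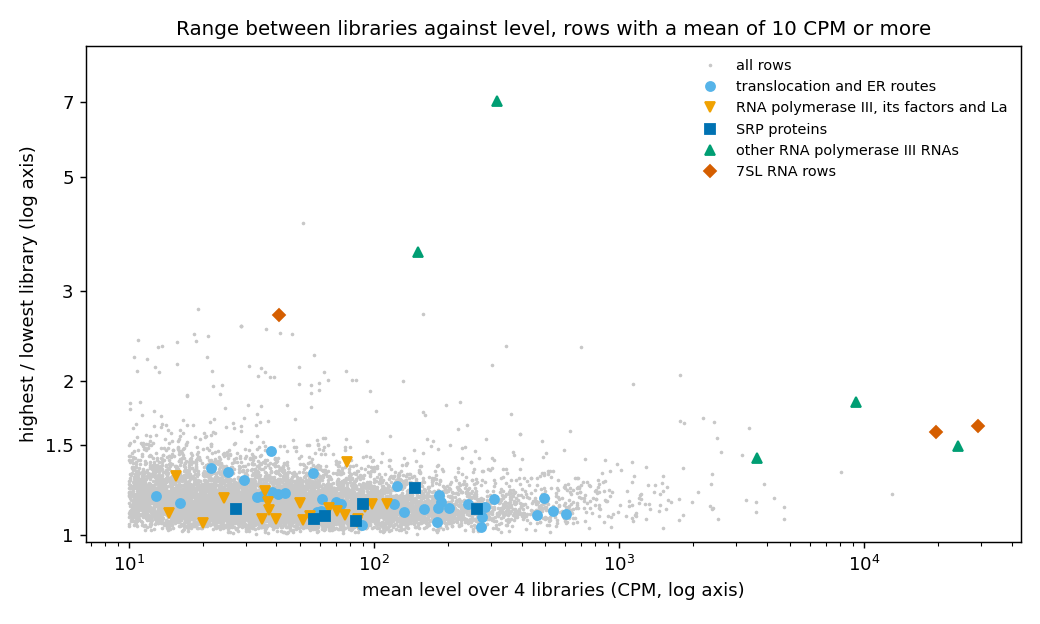
Ratio of the highest to the lowest library (log axis) against mean level in CPM (log axis), for the 9480 rows with a mean of 10 CPM or more (grey) and for the lists described (coloured). The SRP proteins lie at ratios of 1.07 to 1.24 within the mass of rows, and the 7SL RNA rows at 1.59 to 2.69.

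The rows with a library pattern most like that of summed 7SL RNA were ranked after leaving out the 7SL RNA rows that make up the sum. Likeness was measured as the root mean square difference of log2 deviations over 4 libraries, which had a median of 0.26 over the 9480 rows. RN7SL1 and RN7SL2 differed from the sum by 0.028 and 0.040, which is small by construction since they make up nearly all of it. The second RN7SL1 row, also in the sum, differed by 0.65. The 7 protein rows differed by 0.24 to 0.31, near the median over all rows. SNORD3B-1, a U3 small nucleolar RNA gene with near-identical copies, differed by 0.032 and had 13.5, 22.1, 18.9 and 14.9 CPM. Also close were MRPL41 (0.033), a mitochondrial ribosomal protein gene, MIEN1 (0.041) and the cancer-testis antigen gene CTAG1B (0.045), which has a near-identical copy. MRPL41 had 19.7, 32.1, 26.5 and 21.9 CPM, so its lowest and highest libraries were those of 7SL RNA. With the subunits left out, the median protein subunit was closest to GDE1 (0.0023), STK26 (0.0028) and RALB (0.0041), all lowest in replicate 4. These rows were picked as the closest of all, over only 4 libraries, so their closeness has no test.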

How the data were processed

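RNA from 4 libraries of KDAC8-knockout HT1080 cells was analysed as 1 group. Per the labels' protocols, total RNA was depleted of ribosomal RNA with Ribo-Zero Plus and sequenced from both ends. The submitters' processing notes name Trimmomatic 0.39, Bowtie2 2.5.4, RSEM 1.3.3, DESeq2 1.46.0 and GRCh38, without their roles. The annotation release and strand setting are not given in these sources. Values are expected counts per gene as the authors deposited them, not scaled between libraries.

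Counts were rounded for tests. CPM used TMM library sizes (edgeR 4.0.16). Differences between libraries were tested by chi-square for homogeneity. The test was checked on data simulated with counting noise and known changes, without reads shared between rows, so its behaviour with shared reads was not checked. Every row averaging at least 10 counts entered, and calls were made at a Benjamini-Hochberg adjusted p of 0.05. The labels give 1 group, so no groups were compared. Members, lists and tests were chosen with earlier results of these data known. The rule for named genes took all members, the 5 highest other RN7SL rows, in each list the 2 highest and the lowest gene per kilobase and the one with the widest range, and the 5 and 3 rows most like 7SL RNA and the proteins. RN7SL4P, RN7SL3, SEC11A and the marker genes were named outside it. One of these rows and the 7SL sequences are not reported here. Positions, lengths and sequence identities came from GENCODE 29, which holds 94.0% of the gene IDs. Alternatives were DESeq2 1.42.0 size factors, totals, other count filters, other lengths, and each replicate left out. A count of 0 in 1 library allows 0.0662 to 0.0742 CPM (3 counts), for counting error only.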

Additional observations from a re-analysis of the deposited data

How the results depend on the processing

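The count of SRP protein genes that varied was 6, and ranged from 4 to 7 over the 8 alternatives: 7 with DESeq2 size factors or totals (59.4% and 60.2% of all rows varied), 4 without a count filter (34.8%), 6 with a minimum of 50 counts (68.5%), and 4 to 5 with 1 replicate left out (46.8% to 55.2%). The count for the targeting route was 36 of 38 and ranged from 31 to 36, and all 6 tested RNA polymerase III rows varied in each of these settings. The log2 ratio of 7SL RNA to its proteins per kilobase was 12.51. It moved to 11.69 with the longest transcript as length and to 9.10 without a length correction, both by construction, and to 11.76 when rows were matched by table name alone, an alternative chosen after seeing the data that leaves out the RN7SL2 locus. That alternative also took the level of 7SL RNA from 48838 to 29156 CPM. With 1 replicate left out the ratio was 12.40 to 12.65 and the level 44772 to 52556 CPM. All 60 values of single member rows under other scalings or without 1 replicate moved by less than 1 SD. Leaving out 1 of 4 libraries cannot move a mean by that much, so only the scalings could have shown a larger move. No paired analysis was possible because the series has 1 group. Depth limits rows with few counts, such as the pseudogene copies, BCYRN1, S100A4 and the short RNAs at 0.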
